A study of Drosophila melanogaster with 6 samples.

Results

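Sites of matching footprint are places where the Dp peak and the Rbf peak of Drosophila melanogaster flight muscle covered largely the same bases. Sites were selected on the width and position of the peaks, and not on their scores. A site was taken when a Dp peak narrower than 4000 bp overlapped exactly 1 Rbf peak and the common bases made up at least 50% of both peaks, with the mitochondrial genome left out. There were 1115 such sites among 5148 Dp peaks and 3470 Rbf peaks on the 6 chromosome arms. They made up 21.7% of the Dp peaks (95% interval 20.5 to 22.8) and 32.1% of the Rbf peaks (30.6 to 33.7). Of the 1936 Dp peaks under 4000 bp that held exactly 1 Rbf peak, 57.6% (55.4 to 59.8) met the rule. The remaining 821, called here the other one-to-one Dp peaks, are the nearest comparison.

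Flight muscles were taken from pharate flies, which are close to eclosion, at about 96 h after pupa formation. Their chromatin, crosslinked with 1.8% formaldehyde, was profiled by chromatin immunoprecipitation and sequencing (ChIP-seq). Rbf was precipitated in 2 samples with the mouse antibodies DX3 and DX5 together, and Dp in 2 samples with a rabbit antibody, and 2 inputs had no antibody. All the groups shared 1 genotype, with an mCherry-RNAi construct under UAS at the attP2 site and a Mef2 GAL4 driver that is active in muscle. The construct targets a fluorescent protein that flies lack. The growth protocol names 25 °C for every group, but the label for stage in both Dp samples has 5 °C, and which is right is not known here. The files hold 1 peak list for each antibody and no values for single samples, which leaves the spread between replicates unknown and allows no test over samples. How the samples of an antibody were combined is not stated. Read depth is unknown, and the inputs were not used here. Differences between the lists cannot be told apart from differences between the separate ChIP experiments.

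Dp is the partner protein with which E2F transcription factors bind DNA. Rbf is a fly retinoblastoma protein that reaches DNA mainly by holding E2F, and it represses E2F targets, classically genes of DNA replication and the cell cycle. Dp is also known to be needed for normal growth of fly muscle. A protein held through E2F and Dp would be mapped at the same bases as Dp, which is why the shape of the shared peaks is of interest. The width of a ChIP-seq peak depends on fragment length, depth and enrichment as well as on the bound bases.

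The Rbf peak sat nearly centred inside a Dp peak that was wider on both sides. Dp peaks at these sites had a median width of 966 bp (quartiles 785.5 and 1128.5) and Rbf peaks 599 bp (488 and 727). Rbf lay wholly inside Dp at 1072 sites (96.1%), reached past 1 end at 41 and past both ends at 2. The Dp peak went on for a median of 151 bp (142 to 162) to the left of Rbf and 146 bp (139 to 155) to the right, so neither side was favoured. Midpoints lay a median of 50 bp apart, within 100 bp at 888 sites and over 200 bp apart at 30. These widths and positions are what the rule used, and they are given as a description.

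**Figure D1:**
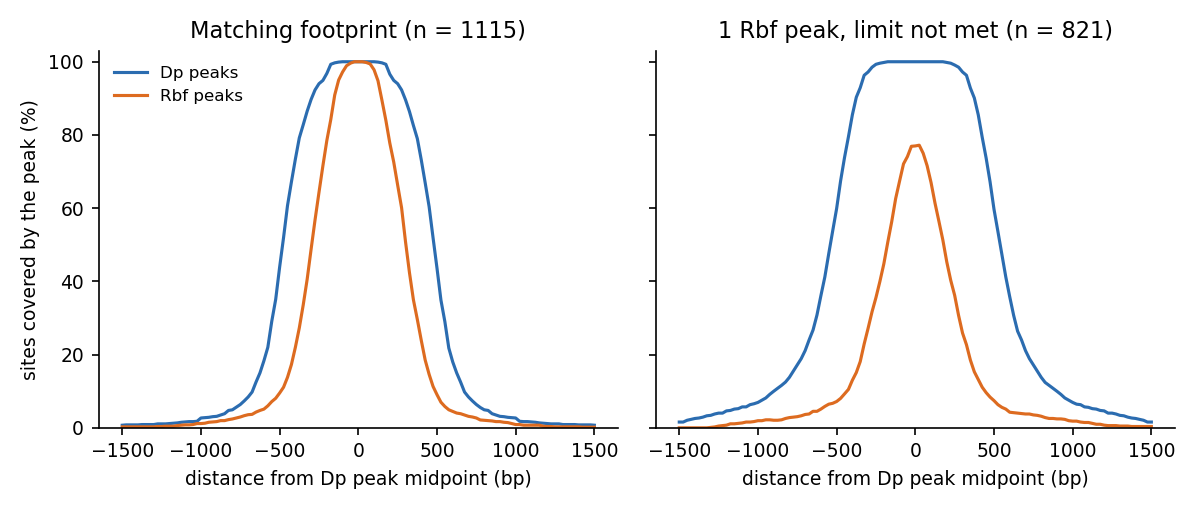
Share of sites (vertical axis, %) covered by the Dp peak (blue) and the Rbf peak (orange) at each distance from the Dp midpoint (horizontal axis, bp), for the 1115 sites of matching footprint and the 821 other one-to-one Dp peaks. At 200 bp from the midpoint, Rbf covered 78.5% and 77.8% of the matching sites on the left and right, and 44.8% and 45.3% of the others.

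At the other one-to-one Dp peaks the Dp footprint was wider, with a median of 1076 bp (1051 to 1106) against 966 bp (944 to 980), and the Rbf footprint was smaller, 410 bp (400 to 420) against 599 bp (583 to 613). Rbf covered the Dp midpoint at all 1115 matching sites, which the rule nearly forces, and at 77.0% of the others. In 820 of these 821 pairs Rbf covered under 50% of the Dp peak, and in the remaining 1 only the Rbf share was under the limit. The share of the Dp peak was therefore what decided almost every case.

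Values ran on across both limits of the rule. Just inside it were the pair on X at 9031950 to 9032243 in build BDGP5, with 147 of 294 Dp bases in common, and one on 2L at 16910018 to 16910965, with 474 of 948. Just outside were a pair on 2R at 13672924 to 13674090, with 583 of 1167, and one on 3R at 17233884 to 17234574, with 345 of 691. Inside, the X pair scored 76.64 for Dp and 150.78 for Rbf and the 2L pair 1121.51 and 199.92. Outside, the 2R pair scored 1720.55 and 356.03 and the 3R pair 775.34 and 202.00. At the width limit, the widest kept Dp peaks were 3990 bp on 2R at 2370283 to 2374272 and 3778 bp on 2L at 22699092 to 22702869. They scored 422.53 and 62.78 for Dp and 232.39 and 328.75 for Rbf. Just beyond it, with Rbf over at least 50% of each, were Dp peaks of 4179 bp and 4360 bp on 2L at 22674496 to 22678674 and 21481207 to 21485566, with Dp scores of 435.13 and 2557.27 and Rbf scores of 352.78 and 680.87.

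Sites of matching footprint had higher median scores than the whole list of either protein, and fewer than 50% were in the top class of both lists. The median Dp score was 1314 (1236 to 1370) against 353.95 over all Dp peaks on the arms, and the median Rbf score was 323 (304 to 343) against 147.94 over all Rbf peaks. Of the 1115 sites, 657 (58.9%, 56.0 to 61.8) lay in the highest 25.0% of all Dp scores. For Rbf, 560 (50.2%, 47.2 to 53.2) lay in the highest 25.0% of all Rbf scores. Both scores were in the highest 25% at 489 sites (43.9%, 40.9 to 46.8), against 30.6% over all Dp peaks with exactly 1 Rbf peak. The scores come from the same peak calls that set the footprints and move with peak width, so these shares are descriptions. With a limit of 75% of both peaks, which 205 sites met, the median Dp score was 422 and 36.6% lay in the highest 25% of Dp scores.

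The other one-to-one Dp peaks had a median Dp score of 943 (887 to 991) and a median Rbf score of 122 (112 to 131). The higher Dp median of matching sites was not found in every place. On the large autosome arms outside the 2 Mb nearest the centromere it was 1543 (1479 to 1597) against 1069 (990 to 1143). On X outside that stretch it was 925 (757 to 1075) against 885 (755 to 1012). Proximal medians were 163 (138 to 204) against 219 (181 to 279), and those of chromosome 4 were 155 (68.0 to 1023) against 236 (95.5 to 264). Dp peaks under 4000 bp with no Rbf peak, 2552 in number, had a median Dp score of 143, and 0.235% of them lay in the highest 25%. Scores of 3100 or more, at which the list piles up, were held by 42 of the matching Dp peaks (3.77%, against 1.65% of all Dp peaks) and by 5 of their Rbf peaks (0.448%, against 0.375% of all Rbf peaks). Such Dp scores were more frequent among Dp peaks under 4000 bp with several Rbf peaks (7.56%) and Dp peaks of 4000 bp or more (5.33%). In the highest 25% of Dp scores lay 41.9% and 46.5% of these, and 39.6% of the other one-to-one peaks. Seen from the Rbf list, 10.9% (8.95 to 13.2) of the peaks in the lowest 25% of Rbf scores were part of a matching site, then 16.5%, 36.6% and 64.5% (61.2 to 67.7) in the highest.

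The 10 sites named for high scores in both lists were similar in shape and wider than most. Their widths all lay above the upper quartile of the matching sites, 1128.5 bp for Dp and 727 bp for Rbf. They lay on the large autosome arms, 4 of them on 3R, with Dp peaks of 1203 to 1546 bp and Rbf peaks of 787 to 987 bp. The first was on 2L at 16487260 to 16488497, with Dp at 3100 and Rbf at 3205.34, the highest score of the Rbf list. Next came sites on 3L at 10690798 to 10692124 (Rbf 2128.86) and on 2R at 20224454 to 20225999 (Rbf 2109.37). Those on 3R began at 25328808, 16889584, 21452101 and 4130659, with Rbf scores of 1831.25, 1754.34, 1686.59 and 1539.21. The others were on 2R at 10189736 to 10191042 and 4487100 to 4488401, and on 3L at 5805533 to 5806946. In all 10 the Rbf peak lay wholly inside the Dp peak and covered 59.3% to 76.3% of it.

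Elsewhere the leading sites were weaker in Rbf. On X the first site by the same rule was at 14497142 to 14498381, with Dp at 3100 and Rbf at 1231.04. On chromosome 4 it was at 860488 to 862499, with Dp at 2222.80 and Rbf at 828.27, and there Rbf covered 96.6% of a Dp peak of 2012 bp. The most nearly identical footprints were at 2242294 to 2244879 on 3R, where 97.8% of the bases covered by either peak were common, at 11940742 to 11942096 on X with 97.7%, and at 21485612 to 21486755 on 2L with 96.8%. Their Dp scores were 1898.83, 1290.87 and 423.38, and their Rbf scores 937.40, 2242.19 and 88.12, so these few sites differed widely in score. Over all 41 sites where Rbf covered more than 90% of the Dp peak, 53.7% of the Dp peaks were below the median Dp score.

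Dp and Rbf scores went together across most sites, less closely on X. Spearman's rho between the scores was 0.77 over the 1115 sites (Pearson's r of log2 scores 0.68), given as a description, since both values come from the same place and share its width. The other one-to-one Dp peaks had nearly the same values, 0.78 and 0.66 over 821. At matching sites rho was 0.75 among the 329 sites with Dp peaks of 800 to 1000 bp and 0.75 among the 418 of 1000 to 1500 bp, where width varies less. Among the 900 sites at or above the median score of all Dp peaks rho was 0.77, and among the 215 below it 0.20. This split is on Dp score itself and leaves the 215 a range of 50.17 to 352.75, which can lower rho. On the large autosome arms outside the 2 Mb nearest the centromere it was 0.83 (773 sites), on X outside that stretch 0.40 (185 sites) and in the proximal stretches 0.66 (144 sites).

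**Figure D2:**
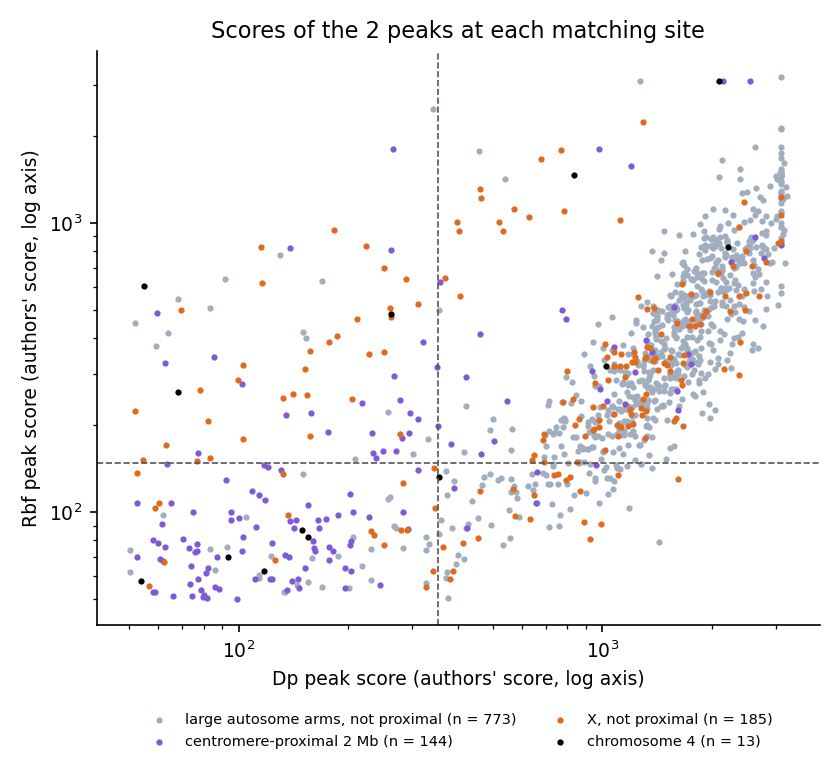
Dp score (horizontal, log axis) against Rbf score (vertical, log axis) of the 1115 sites, each point 1 site coloured by where it lies, with dashed lines at the median of each whole list (353.95 and 147.94). Most autosomal sites form 1 band at high scores, while proximal, X and chromosome 4 sites make up much of the scatter on the left, where Dp scores are low.

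Sites with weak Dp peaks were unevenly spread, in places where Dp peaks in general were weak too. Of the 215 below the median Dp score (19.3% of the sites, against 50% of all Dp peaks), 109 were in the proximal 2 Mb of X and the large autosome arms, 51 elsewhere on X, 47 elsewhere on the large autosome arms and 8 on chromosome 4. That is 75.7% (67.9 to 82.4) of the proximal sites, 27.6% (21.3 to 34.6) of the other X sites, 6.08% (4.5 to 8.0) of the other autosomal sites and 8 of 13 on chromosome 4. Over all Dp peaks in the same places the shares were 69.4%, 53.2%, 44.2% and 52 of 66. Among the other one-to-one Dp peaks they were 66.7% (57.2 to 75.2), 12.1% (6.63 to 19.9), 8.12% (6.05 to 10.6) and 9 of 9, with intervals that overlapped those of matching sites in the proximal and autosomal places and not on X. The weak matching sites of X were uneven along the arm. They were 23 of the 49 sites from 9 to 11 Mb, a stretch described below, and 28 of the 136 others outside the proximal stretch. The 215 weak Dp peaks were narrow, with a median of 620 bp, and Rbf covered a median of 71.5% of them, against 61.4% at the 900 stronger sites. Their median Rbf score was 96.55 against 368.18. Of the matching sites on X and the large autosome arms, 13.1% (11.1 to 15.2) were proximal, against 15.7% of all Dp peaks and 24.1% (22.7 to 25.6) of all Rbf peaks. Of proximal Rbf peaks 17.6% (15.0 to 20.3) were part of a matching site, and of the Rbf peaks elsewhere on these arms 37.1% (35.2 to 39.0).

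A smaller set combined a weak Dp peak with a strong Rbf peak. At 37 sites Dp was below its median and Rbf in its highest 25%, and 18 of these were on X. Over all Dp peaks with exactly 1 Rbf peak, 39 of 2031 (1.92%) had this combination, and the rule for matching widths kept 37 of those 39. Outside the proximal stretches it was seen at 17 of 185 X sites (9.19%) and 11 of 773 autosomal sites (1.42%). Median widths at the 37 sites, each taken separately, were 439 bp for Dp and 440 bp for Rbf. Site by site, Rbf covered a median of 85.1% of the Dp peak. The reverse, Dp in its highest 25% with Rbf not above its median, occurred at 91 of the 2031 Dp peaks with exactly 1 Rbf peak (4.48%). The rule kept 8 of those 91, among its 1115 sites. The 37 include, named after their values were seen, a site on 3L at 13285140 to 13285558, with Dp at 342.96 and Rbf at 2484.17, where Rbf covered the whole Dp peak and went beyond it by 32 and 38 bp. Others were on 3R at 975101 to 975800 (Dp 264.87, Rbf 1804.51) and on X at 13487687 to 13488073 (Dp 183.21, Rbf 946.00) and 12994550 to 12995015 (Dp 224.05, Rbf 835.43). Of the reverse kind, the site with the lowest Rbf score was on 2L at 1570641 to 1573631, with Dp at 1429.95 and Rbf at 78.62.

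How often an Rbf peak matched the Dp footprint was not a simple function of Dp score. Over all Dp peaks, matching sites made up 6.80% (4.78 to 9.33) of the lowest of 10 equal classes of Dp score and 58.3% (53.9 to 62.6) of the highest. Among Dp peaks under 4000 bp that had exactly 1 Rbf peak, the share was 68.6% (54.1 to 80.9) in the lowest class, 36.3% (30.4 to 42.4) in the class from 587 to 931 and 81.5% (77.2 to 85.4) in the highest. The dip was also there on the large autosome arms outside the proximal stretches, at 33.5% (26.9 to 40.6) in the same class and 80.7% (76.1 to 84.8) in the highest. There the lowest class held 7 of 12, with an interval of 27.7% to 84.8% that includes the value of the dip. Of the 35 matching sites in the lowest class over all arms, those 7 were the only ones on the large autosome arms outside the proximal stretches. Dp width was not held equal in these classes, and a narrow Dp peak needs fewer common bases to meet the rule. By width, the share of one-to-one Dp peaks was 94.7% (82.3 to 99.4) under 400 bp, 54.4% (50.8 to 57.9) at 1000 to 1500 bp and 34.5% (24.6 to 45.4) at 2000 to 4000 bp. In the lowest class of Dp score the median Dp width was 419 bp at matching sites and 949 bp at the others.

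**Figure D3:**
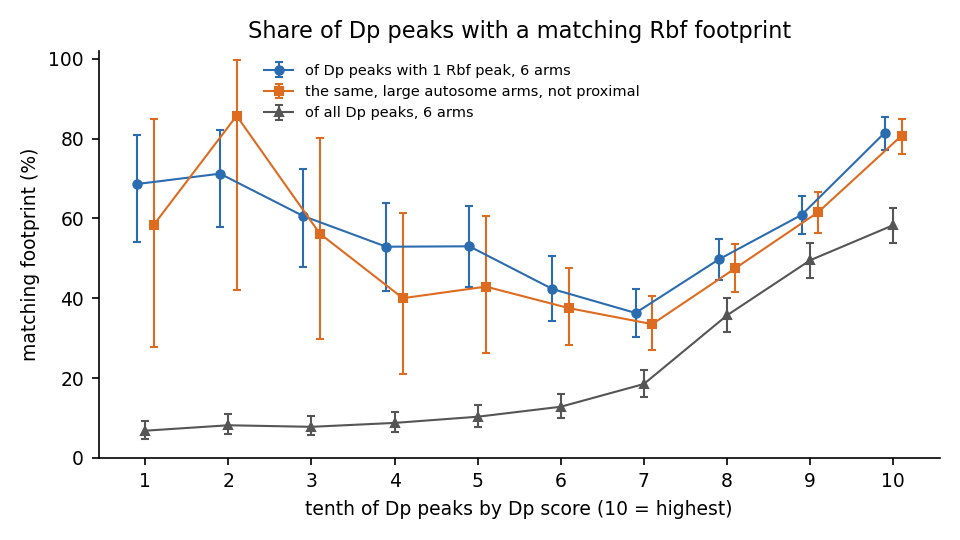
Share of Dp peaks with a matching Rbf footprint (vertical axis, %) in 10 equal classes of Dp score (horizontal axis), as a share of Dp peaks under 4000 bp with exactly 1 Rbf peak (blue circles), of the same on the large autosome arms outside proximal stretches (orange squares) and of all Dp peaks (grey triangles). Bars are exact 95% intervals, and Dp width was not held equal between classes. The blue series has its lowest value, 36.3%, in the class from 587 to 931.

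At equal Dp width the matching sites had a higher median Rbf score in each class, and a higher median Dp score in each class from 600 bp up, where the intervals for Dp were apart at 800 to 1500 bp only. With Dp peaks of 800 to 1000 bp, the median Dp score was 1280 (1214 to 1338) at 329 matching sites and 855 (796 to 918) at 210 other one-to-one peaks. With 1000 to 1500 bp it was 1884 (1806 to 1967) and 1270 (1195 to 1330). In the narrower class of 400 to 600 bp the order was not clear, at 157 (138 to 218) and 212 (111 to 260). Median Rbf scores in the same 3 classes were 293 against 120, 508 against 190 and 93.2 against 59.3. The Rbf peak of a matching site is wider by the rule, at 559 against 376 bp in the first class, and Rbf score moved with Rbf width (rho 0.58 over the 1115 sites), so the Rbf difference is in part built in.

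At equal Dp score the Rbf peak of a matching site scored higher as well. In the highest of the 10 classes of Dp score the median Rbf score was 736 (694 to 773) at matching sites and 427 (365 to 471) at the other one-to-one peaks, and in the class below it 375 (354 to 407) and 246 (228 to 272). Over the 10 classes the ratio of the medians ran from 1.18 to 2.53. The intervals overlapped in the lowest, the third and the fourth class. From the third class up the median Rbf peak of a matching site was wider, so the same caution holds there. In the lowest class it was narrower, at 337 against 456 bp, and in the second at 348.5 against 360 bp. The Dp peak of a matching site was narrower in each class, as in the second at 512.5 against 1418 bp.

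**Figure D4:**
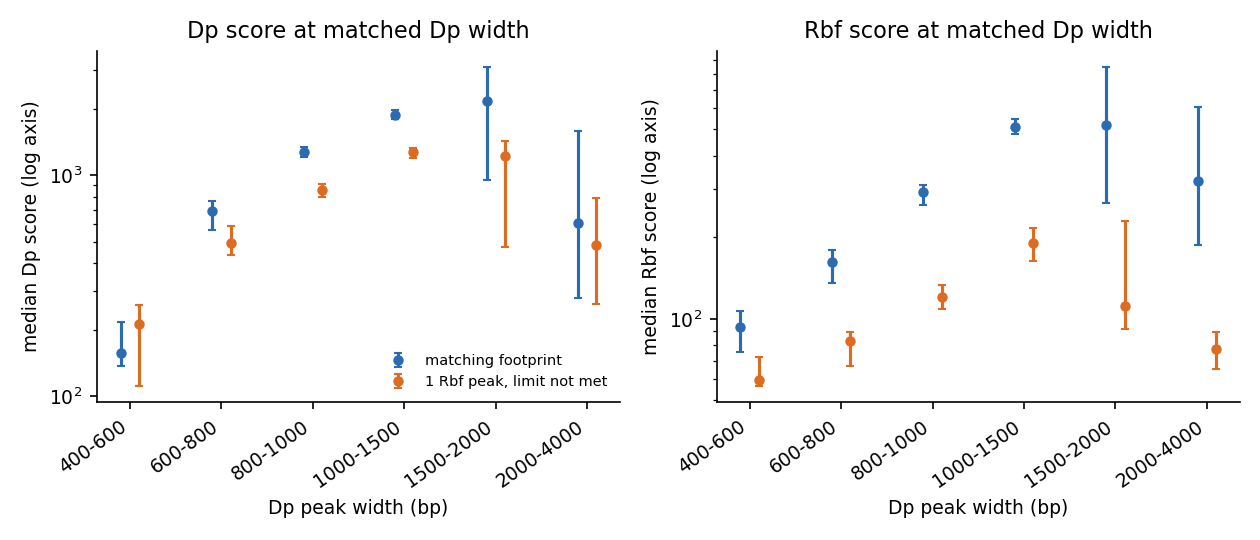
Median Dp score (left, log axis) and median Rbf score (right, log axis) by Dp peak width (horizontal axis, bp) at matching sites (blue) and at the other one-to-one Dp peaks (orange), with 95% order-statistic intervals. From 800 to 1500 bp the blue and orange intervals do not overlap on either side; in the other classes drawn the Dp intervals overlap and the Rbf intervals do not.

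Matching sites were spread over all the arms. The number per Mb of listed span was 11.3 (9.90 to 12.8) on 2R, 9.62 (5.12 to 16.5) on chromosome 4, 9.60 (8.49 to 10.8) on 3R, 8.80 (7.67 to 10.1) on 3L, 8.79 (7.61 to 10.1) on X and 7.95 (6.84 to 9.19) on 2L, and only 2R and 2L had intervals that did not overlap. As a share of the one-to-one Dp peaks they ranged from 53.9% (48.8 to 58.8) on 3L to 62.1% (56.6 to 67.5) on X, with overlapping intervals. Peaks on X were smaller: the median Dp peak at the 197 X sites was 802 bp with a score of 851 (679 to 1015), against 994 bp and 1408 (1354 to 1481) at the 905 sites on the large autosome arms. The Rbf medians were closer, at 279 (229 to 323) and 335 (311 to 357). The 13 sites on chromosome 4 had a median Dp score of 155 (68.0 to 1023), and Rbf covered a median of 84.4% of the Dp peak there.

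One stretch of X stood out by its number of sites. The bin from 9000001 to 10000000 held 34 of the 197 X sites, against a median of 8.0 over the 22 full bins of 1 Mb and a next highest of 15 in the neighbouring bin, from 10000001 to 11000000. It held 61 Dp peaks and 64 Rbf peaks, against medians of 41.5 and 27.5. The largest count in a bin of any other arm was 23. Both X bins were singled out after these counts were seen.

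The 49 sites in these 2 Mb of X also differed from the other X sites in shape and balance, in a direction that proximal and chromosome 4 sites shared. Rbf covered at least 80% of the Dp peak at 21 of them (42.9%, 28.8 to 57.8), against 21 of 148 on the rest of X (14.2%, 9.0 to 20.9). Over all 1115 matching sites the share was 12.5% (10.6 to 14.5). It was 8.47% of all Dp peaks with exactly 1 Rbf peak, a base that includes pairs outside the rule. Within its own list the Rbf score ranked higher than the Dp score at 34 of the 49 (69.4%, 54.6 to 81.7) and at 29.1% (21.9 to 37.1) of the other X sites. The share was 29.7% (27.0 to 32.5) of all 1115 matching sites and 20.3% of all Dp peaks with exactly 1 Rbf peak. At all 21 closely fitting sites Rbf ranked higher. Those 21 had Dp peaks of 373 to 1028 bp (median 756) and Rbf peaks with a median of 669 bp. Their median scores were 312 for Dp and 622 for Rbf.

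Examples, named after their values were seen, lie at 10234011 to 10234864 (Dp 459.74, Rbf 1315.12), 9409398 to 9410073 (Dp 463.06, Rbf 1226.09), 9491393 to 9492183 (Dp 572.74, Rbf 1116.34) and 9813284 to 9814311 (Dp 627.85, Rbf 1051.26). Each Rbf peak covered 85.4% to 91.9% of its Dp peak. Sites of this stretch also included an ordinary strong pair within the same bin, at 9903571 to 9905056, with Dp at 3100 and Rbf at 1062.81. Without the 49 sites, rho between the scores on the rest of X was 0.57, still under the 0.84 of the large autosome arms. Copy number, repeats and read depth in this stretch were not analysed here, and their part in these values was not tested.

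**Figure D5:**
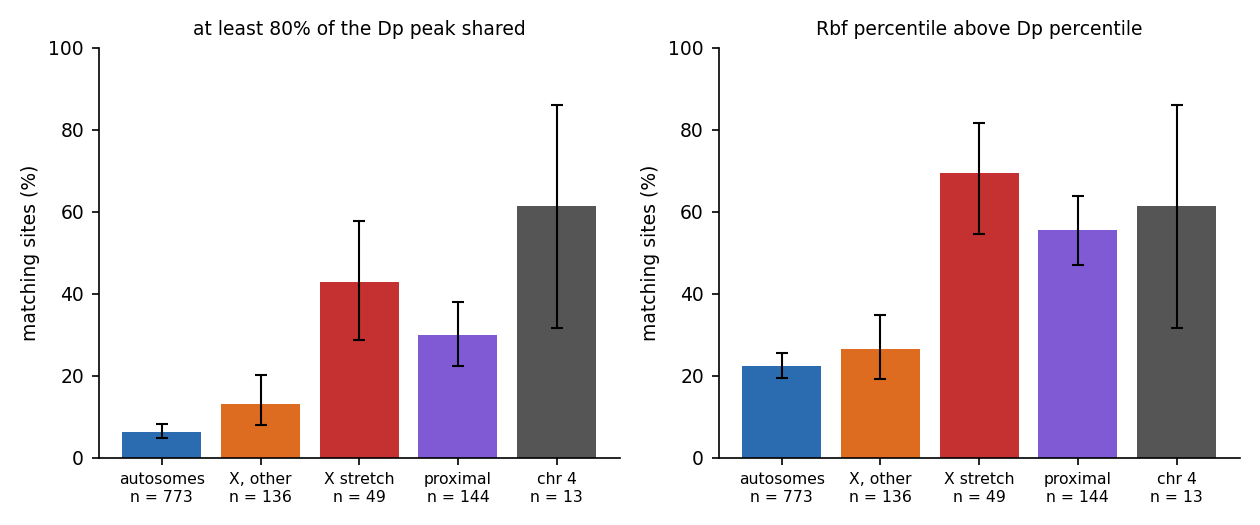
Share of matching sites (vertical axis, %) at which Rbf covered at least 80% of the Dp peak (left) and at which the Rbf score ranked higher in its list than the Dp score (right), by place, with exact 95% intervals. The places are the large autosome arms and X outside proximal stretches and outside the X stretch, the X stretch from 9 to 11 Mb, the proximal 2 Mb and chromosome 4; the X stretch stands at 42.9% and 69.4%, proximal sites at 29.9% and 55.6%, chromosome 4 at 61.5% in both, other X sites at 13.2% and 26.5%, and the autosomes at 6.34% and 22.4%.

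Dp peaks were weak more often where Rbf covered most of them. Where Rbf covered 50% to 60% of the Dp peak (453 sites), 13.5% of the Dp peaks were below the median Dp score, and at 60% to 70% (357 sites) 10.1% were. At 70% to 80% (166 sites) it was 26.5%, at 80% to 90% (98 sites) 53.1% and above 90% (41 sites) 53.7%. The median Dp score ran from 1276 (1176 to 1340) in the first class through 1535 in the second to 312 (258 to 838) in the last, while that of Rbf was 245 (232 to 275), 369 and 474 (306 to 688). Of the 139 sites at 80% or more, 49 were on the large autosome arms outside the proximal stretches, 43 were proximal, 39 were elsewhere on X and 8 on chromosome 4. They made up 49 of 773, 43 of 144, 39 of 185 and 8 of 13 sites in these places.

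Matching sites were farther from other Dp peaks than Dp peaks in general, though not on every arm than the other one-to-one peaks. The nearest other Dp peak was a median of 5022 bp away (4640 to 5651), against 2795 bp (2644 to 2983) over all Dp peaks and 3523 bp (2981 to 4108) for the other one-to-one peaks. On X the median gap was 5891 bp at matching sites and 5991 bp at the other one-to-one peaks. Another Dp peak lay within 1 kb at 180 sites (16.1%, 14.0 to 18.4), against 32.3% of all Dp peaks, and within 5 kb at 555 (49.8%, 46.8 to 52.8), against 61.3%. The Rbf peak had another Rbf peak within 5 kb at 350 sites (31.4%, 28.7 to 34.2), against 51.0% of all Rbf peaks and 37.9% (34.6 to 41.3) of the other one-to-one peaks. Within 1 kb the shares were 6.82% (5.41 to 8.46) of matching sites and 4.14% (2.88 to 5.74) of the others, with intervals that overlapped, so no order is clear. Because a site may hold only 1 Rbf peak, crowded Rbf peaks are kept out in part by the rule. Proximal sites were less isolated, with a median gap of 1407 bp (877 to 2213) to the nearest Dp peak.

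The median gap from a site of matching footprint to the next one was 27585 bp (24478 to 30152). Another lay within 1 kb at 34 sites (3.05%) and within 5 kb at 154 (13.8%, 11.8 to 16.0). Gaps of this kind depend on how sparse the set is. The spacing of an equally sparse set was not computed, so these values do not say whether the sites keep apart or cluster. The closest pair, named after it was seen, was on X at 9031674 to 9031924 and 9031950 to 9032243, 25 bp apart, in a row of 4 weak narrow sites that ended at 9033028 and included the narrowest of all, 201 bp at 9032408 to 9032608. Dp scores in that row ran from 58.98 to 132.71. One Rbf peak also touched a second Dp peak, on 2L at 21268877 to 21269603.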

How the data were processed

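The deposited data used here were 2 peak lists, 1 for the Dp antibody and 1 for the Rbf antibody, with no values for single samples. The build BDGP5 and the tools MACS 1.4.2, Bowtie2 2 and bcl2fastq 1.8.3 are listed without roles in the submitters' processing notes, and peak names in the files begin with MACS. Each peak has a score given by the authors, whose unit is not stated per the file headers, since the lists have none. It orders peaks within 1 list only. No source used here says whether samples were pooled or whether input was the control. Read depth is unknown, so intervals cover counting error over peaks only.

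A Dp peak under 4000 bp on the 6 arms was kept when it overlapped exactly 1 Rbf peak by at least 1 bp and the common bases made up at least 50% of both. bedtools 2.31.1 gave the same 1115 sites. On planted lists the rule recovered 4660 of 4660 Dp peaks in their class. Shares have exact Clopper-Pearson 95% intervals, and medians have 95% intervals from order statistics. Score percentiles were taken over all peaks of a list on the arms. No test was run, because each antibody has 1 list and peaks are not replicates. Correlations are descriptions. Named sites are the 10 whose smaller score percentile was highest, the first such site on each arm, the 3 of largest common share and those next to the limits; other sites were named after their values were seen. The rule for the sites, the lists and the measures were chosen with earlier results of these data known. Genes, sequence and motifs were not analysed here, since no genome of build BDGP5 was used. Python 3.11.15, numpy 2.4.6, pandas 2.3.3, scipy 1.17.1 and matplotlib 3.10.9 were used.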

Additional observations from a re-analysis of the deposited data

How the results depend on the processing

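Of 84 alternative values for 7 results under 12 settings, 55 stayed within the 95% interval of the reported value, 29 moved outside it and 0 changed sign. A change of sign was possible for rho alone, since shares and median scores are always positive. The setting that leaves out X from 9 to 11 Mb was chosen after seeing the data. With a limit of 40% of both peaks, sites made up 29.6% of Dp peaks and 78.7% of one-to-one Dp peaks, with median scores of 1233 for Dp and 272 for Rbf and 42.5% in the highest 25% of Rbf scores. With 60%, these were 12.9%, 34.2%, a Rbf median of 389 and 59.1%. With 75%, 205 sites were left, 3.98% of Dp and 10.6% of one-to-one peaks, with medians of 422 and 377, 36.6% and 54.1% in the highest 25% of Dp and Rbf, and rho 0.72. With scores of at least 100 in both lists, the shares were 22.9% and 64.0%, the medians 1457 and 363, the highest 25% of Rbf 39.9% and rho 0.71. Without Rbf peaks under 300 bp, 44.0% lay in the highest 25% of Rbf and the one-to-one share was 60.1%. Without chromosome 4 and proximal stretches the medians were 1417 and 352. Without X the Dp median was 1400 and rho 0.83, and without X from 9 to 11 Mb rho was 0.80. Dp widths under 2000 bp, no width limit, leaving out scores of 3100 or more and an Rbf peak with 1 Dp peak alone moved none of the 7. The lower Dp median at 75% goes with the weaker Dp peaks at closely fitting sites, and its cause was not tested. No paired analysis was possible because each list holds 1 value per peak and none per replicate, so no replicate could be left out either. Unknown depth limits any reading of weak or missing peaks, and scores tied at 3100 limit ranking at the top.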
